A study of Homo sapiens with 4 samples.

Results

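AP-1 is a transcription factor made of paired basic leucine zipper (bZIP) proteins, and its genes were followed here in human K562 cells treated with AC-1041. The family was taken as FOS, FOSB, FOSL1, FOSL2, JUN, JUNB, JUND, BATF and JDP2, that is, every gene probe of the arrays whose name in the files, or whose current symbol through its transcript accession, was one of these 9. Each of the 9 genes had 1 probe, among 14297 gene probes for 14267 genes. FOSL2 did not pass the filter on dim probes, 8 genes passed it, and 7 could be tested, JUND being lost to marked spots. Of all gene probes 9191 passed the filter and 8852 could be tested.

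K562 is an established line of human erythroleukemia cells. AC-1041 is an analog of thalidomide, a fluorinated phthalimide that carries a morpholine group. The treated group was K562 cells given AC-1041 for 4 h and the other group was control K562 cells collected at the same time, and each of 4 Agilent arrays, read in 2 colours, held labelled RNA of both groups. Cy5 was the dye of the treated RNA on the first pair of arrays (1 and 2), Cy3 on the second pair (3 and 4). The sample labels call the control cells untreated, whereas the methods of the study name a DMSO control. The labels give no dose. The methods speak of quadruplicate samples without stating which sample went on which array, so the p-values measure only the spread between the arrays, which may be technical. A single cell line was used, and RNA of whole cultures was measured, so that fewer cells expressing a gene and less RNA per cell cannot be told apart.

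FOS and JUN proteins bind DNA as pairs held together by their leucine zippers. JUN proteins pair with themselves or with FOS proteins, while FOS proteins need a partner, and the pairs bind the TPA response element (TRE) and the related cyclic AMP response element (CRE). FOS, FOSB, JUN and JUNB are immediate early genes, whose transcription starts within minutes of growth factor or stress signals passed on by MAP kinases and whose transcripts are short-lived. BATF and JDP2 are small bZIP proteins that pair with JUN proteins and can hold AP-1 activity down. In blood cell precursors AP-1 is known for its part in monocytic and megakaryocytic differentiation.

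Every array held 14833 features, and no spot was saturated. Between 47.1% and 65.9% of gene probes were well above background in the treated channel and between 41.6% and 66.6% in the control channel, the higher shares being those of arrays 3 and 4. The SD of the negative control spots lay between 226 and 308 on arrays 1 and 2 and between 27.8 and 40.5 on arrays 3 and 4, so the orientation of the dyes and the quality of the arrays cannot be told apart. Taken over all probes, the log2 ratios correlated at 0.81 between arrays 1 and 2 and at 0.94 between arrays 3 and 4, but at -0.28 to -0.11 between arrays of different orientation. Ratios were therefore fitted with limma using a treatment and a dye term, and the dye term passed an adjusted p of 0.05 for 57.5% of all probes tested. The standard errors rest on differences between arrays of the same orientation, whereas each SD is over all arrays. Of the erythroid marker genes, which define K562 cells, 14 of 15 on the array were well above background in both channels of all 4 arrays.

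To learn whether 4 h of AC-1041 changed the transcript levels of the AP-1 genes, each gene's ratio was tested. JUN, FOS, JDP2, FOSB and BATF rose in treated cells, JUN the most (3.40-fold) and BATF the least (1.25-fold). FOSL1 and JUNB did not pass the test, with log2 ratios of 0.11 and -0.11. Thus 5 of the 7 genes tested were called higher at an adjusted p under 0.05 (limma, Benjamini-Hochberg over all probes), where 23.2% of all probes tested were called higher, and 0 were called lower, where 13.1% of all probes were. With an unadjusted p under 0.05 also 0 members were lower. Over the 7 genes the log2 ratios had a median of 0.80, beside 0.01 for all genes tested. FOS, FOSB and JUN belong to the genes that the study itself picked from these arrays, so their direction is not independent evidence.

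**Figure D1:**
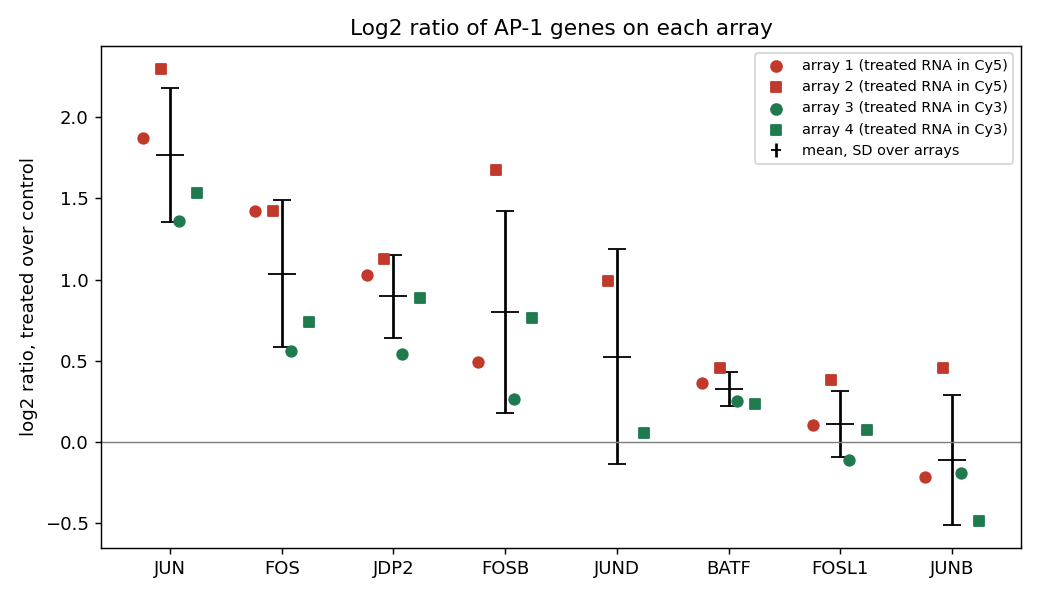
Log2 ratio of treated to control cells (vertical axis) of the AP-1 genes on each array, with colours for the dye of the treated RNA and the bars for the mean and SD over the arrays measured (4 arrays, or 2 for JUND). JUN lies highest on every array, FOS, JDP2, FOSB and BATF lie above 0 on all 4 arrays, and FOSL1 and JUNB lie on both sides of 0.

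JUN encodes the founding member of the JUN group and is itself a target of the JNK kinases and of AP-1. Its log2 ratios on arrays 1 to 4 were 1.87, 2.30, 1.36 and 1.53. The ratio was thus high on all arrays, and the arrays with the treated RNA in Cy5 gave the larger values. The mean was 1.77 ± 0.41 (SD, n = 4 arrays), with a limma standard error of 0.085, a 95% interval of 1.57 to 1.96 and an adjusted p of 2.1e-05. JUN was the only member still past the threshold when the dye term was left out (limma adjusted p = 0.035), where 0.559% of all probes were called higher. By its ratio it ranked 13 among the 8852 probes tested. Its normalised log2 intensities in control cells were 11.88, 12.41, 12.25 and 12.74 over arrays 1 to 4, and those in treated cells were 13.75, 14.71, 13.61 and 14.27. The lowest treated value was above the highest control value, so the groups did not overlap, as was so for 6.62% of the probes measured on all 4 arrays (all treated levels above all control levels). Its probe maps to the minus strand of chromosome 1 (hg18, 59020317 to 59020376), and which exon or UTR the probes of the family cover was not looked up, since no hg18 annotation was used here.

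JUNB and JUND are the other JUN genes, and both proteins are weaker activators than JUN in many settings. JUNB had log2 ratios of -0.22, 0.46, -0.19 and -0.48 on arrays 1 to 4 (probe on chromosome 19, 12763998 to 12764057, plus strand). The sign differed between arrays, array 2 being the only one above 0, and the mean was -0.11 ± 0.40 (SD, n = 4) with a 95% interval of -0.37 to 0.15 and a limma adjusted p of 0.485. Arrays 3 and 4 taken alone gave -0.34 with a limma adjusted p of 0.0016, past the threshold for lower, while arrays 1 and 2 alone gave 0.12 (adjusted p = 0.631). Without array 2 JUNB was also called lower, at -0.28 with a limma adjusted p of 0.012. In control cells the normalised log2 intensity of JUNB lay between 10.40 and 11.13 and in treated cells between 10.45 and 10.86, so that the groups overlapped. JUND (chromosome 19, 18251756 to 18251814, minus strand) was well above background in both channels of all 4 arrays, but Feature Extraction marked it as an outlier on arrays 1 and 3. The ratio was 0.99 on array 2 and 0.06 on array 4, which leaves no test with the dye term. With the marked spots kept, arrays 1 and 3 gave 0.30 and -0.18 and the limma estimate over all arrays was 0.29, with an adjusted p of 0.0988.

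FOS, the first of the FOS genes, encodes the partner of JUN in the classical AP-1 pair. Its log2 ratios were 1.42 and again 1.42 on arrays 1 and 2, then 0.56 and 0.74 on arrays 3 and 4. All arrays showed a higher level in treated cells, and the arrays with the treated RNA in Cy5 gave a mean of 1.42 against 0.65 for those with it in Cy3. The dye term of FOS passed the threshold (limma adjusted p = 0.0019), and so did that of JUN (adjusted p = 0.0136), whereas those of the other 5 genes tested did not. Over the 4 arrays FOS rose 2.05-fold, by a log2 ratio of 1.04 ± 0.45 (SD), with a standard error of 0.066, a 95% interval of 0.88 to 1.19 and a limma adjusted p of 5.0e-05. Without the dye term the adjusted p was 0.0886. The normalised log2 intensities of FOS in control cells were 11.03, 11.03, 11.42 and 11.52 over arrays 1 to 4, and those in treated cells were 12.45, 12.45, 11.98 and 12.25. The groups did not overlap (6.62% of probes), the highest control value of 11.52 being below the lowest treated value of 11.98. The FOS probe lies on chromosome 14 from 74817967 to 74818026 (plus strand).

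FOSB encodes a protein close to FOS, and its transcript is at low levels in resting cells. The log2 ratios were 0.49, 1.68, 0.27 and 0.77 on arrays 1 to 4, all above 0 but spread more widely than those of the other 6 members tested. The largest, on array 2, came from a spot that was not well above background in either channel. FOSB was well above background in the treated channel of 3 arrays and in the control channel of arrays 3 and 4 only. The mean was 0.80 ± 0.62 (SD, n = 4), which is 1.74-fold, with a standard error of 0.17, a 95% interval of 0.39 to 1.21 and a limma adjusted p of 0.0102. This call was lost without array 4 (log2 ratio 0.68, limma adjusted p = 0.121) and without the dye term (adjusted p = 0.236), and without array 2 the log2 ratio was 0.50 and still called. Its normalised log2 intensity ran from 7.71 to 9.82 in control and from 9.39 to 10.31 in treated cells, and these ranges overlapped. The probe lies on chromosome 19 from 50670045 to 50670104 (plus strand).

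FOSL1 and FOSL2 encode the FOS-related proteins FRA1 and FRA2, which act later and for longer than FOS after a stimulus. FOSL1 was well above background everywhere, with log2 ratios of 0.10, 0.38, -0.11 and 0.08 on arrays 1 to 4 (chromosome 11, 65416674 to 65416733, minus strand). The values lay around 0, array 2 giving the highest, and the mean was 0.11 ± 0.20 (SD, n = 4), with a 95% interval of -0.061 to 0.29 and an adjusted p of 0.273 from limma. A rise of the size seen for FOS lies outside this interval. The FOSL1 intensity lay between 10.64 and 11.32 in control and between 11.02 and 11.31 in treated cells, so that the groups overlapped. FOSL2 (chromosome 2, 28492611 to 28492670, plus strand) was not well above background in either channel of any array, and no fold is given for it.

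JDP2 encodes the JUN dimerization protein, which pairs with JUN and represses from AP-1 sites, and BATF encodes a protein that joins JUN proteins but lacks an activating domain. JDP2 had log2 ratios of 1.03, 1.13, 0.54 and 0.89 on arrays 1 to 4. It was higher in treated cells on all arrays and rose 1.86-fold, by 0.90 ± 0.26 (SD, n = 4), with a standard error of 0.077, a 95% interval of 0.72 to 1.08 and a limma adjusted p of 0.000173 (0.0706 without the dye term). The normalised log2 intensity of JDP2 ran from 11.50 to 11.72 in control and from 12.26 to 12.66 in treated cells, and these ranges did not overlap (6.62% of probes). BATF had log2 ratios of 0.36, 0.45, 0.25 and 0.23, the narrowest spread of the 7 members tested. Its mean was 0.33 ± 0.10 (SD, n = 4), or 1.25-fold, with a standard error of 0.063, a 95% interval of 0.18 to 0.47 and a limma adjusted p of 0.00585. BATF was dim, being well above background in each channel only on arrays 3 and 4. The normalised log2 intensity of BATF ran from 7.92 to 9.22 in control and from 8.38 to 9.45 in treated cells, and these ranges overlapped. Leaving out array 3 or array 4 ended its call, with limma adjusted p-values of 0.068 and 0.076, as did leaving out the dye term (0.272).

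**Figure D2:**
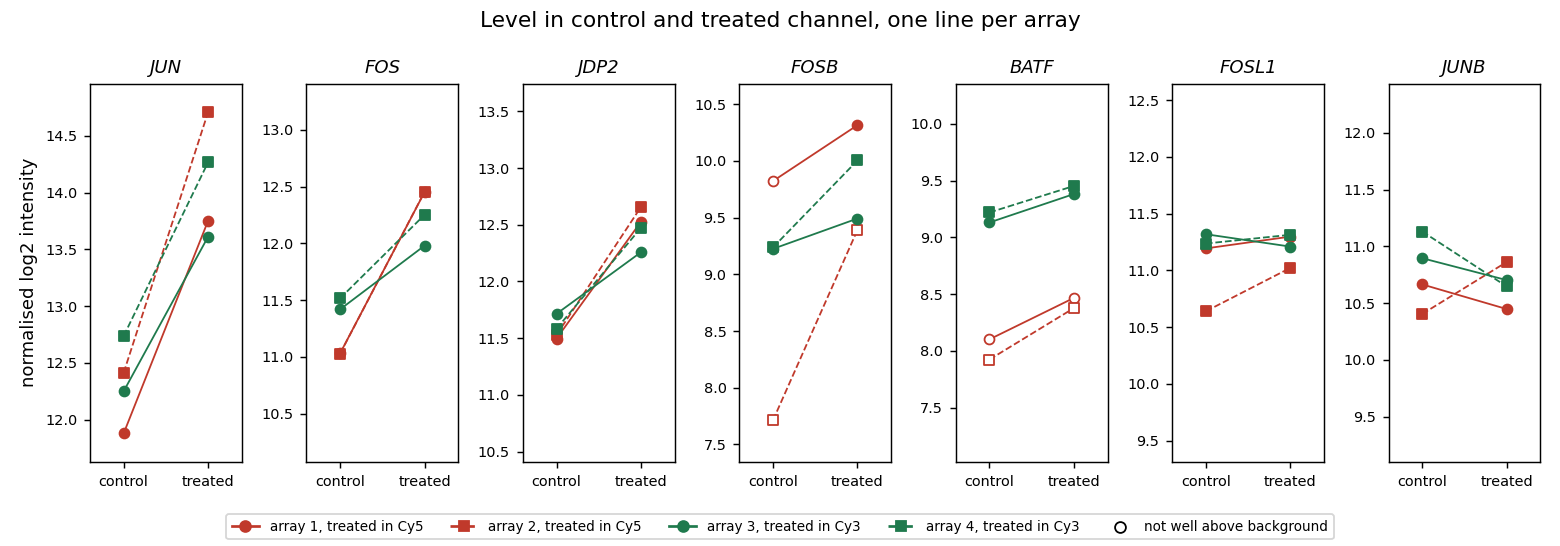
Normalised log2 intensity (vertical axis) of the 7 genes tested in the control and the treated channel, 1 line per array, with open symbols where the spot was not well above background in that channel. Each panel spans the same number of log2 units around its own values, since levels of different probes cannot be compared; for JUN, FOS and JDP2 every treated value lies above every control value (as for 6.62% of the probes measured on all 4 arrays), and the lines of JUNB cross.

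A higher value on all 4 arrays was seen for JUN, FOS, JDP2, FOSB and BATF, and for 16.3% of the probes measured on all 4 arrays. For each of these 5 genes the exact sign-flip permutation test (two-sided) gave p = 0.125, the smallest that 4 arrays allow. It gave 0.5 for FOSL1 and 0.625 for JUNB. Within each dye orientation the same 5 genes were called higher: JUN, FOS, JDP2, FOSB and BATF passed the threshold on arrays 1 and 2 alone, where 13.3% of all probes were called higher, and on arrays 3 and 4 alone, where 39.5% were. On arrays 1 and 2, however, BATF was not well above background in either channel, and FOSB only in the treated channel of array 1, so for these 2 genes the ratios of that orientation rest on dim spots. JUN had means of 2.09 in the first and 1.45 in the second orientation, JDP2 1.08 and 0.72, FOSB 1.08 and 0.52, and BATF 0.41 and 0.24. All 5 ratios were thus larger on the arrays with the treated RNA in Cy5. Within a single orientation, treatment and dye cannot be told apart, so these calls are of both together.

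The members were also set against each other within each array, as a description, since they share the arrays. JUN was above every other gene tested on 4 of 4 arrays, by 0.73 ± 0.19 over FOS and by 0.87 ± 0.22 over JDP2 (mean difference of log2 ratios ± SD over the 4 arrays). FOS, JDP2 and FOSB were not set apart in this way. FOS was above JDP2 on 3 arrays and above FOSB on 2, with mean differences of 0.14 ± 0.25 and 0.24 ± 0.51 (SD). Each of these 3 genes was above BATF, FOSL1 and JUNB on all 4 arrays. BATF was above FOSL1 on 4 arrays, by 0.21 ± 0.12 (SD), and FOSL1 above JUNB on 3.

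**Figure D3:**
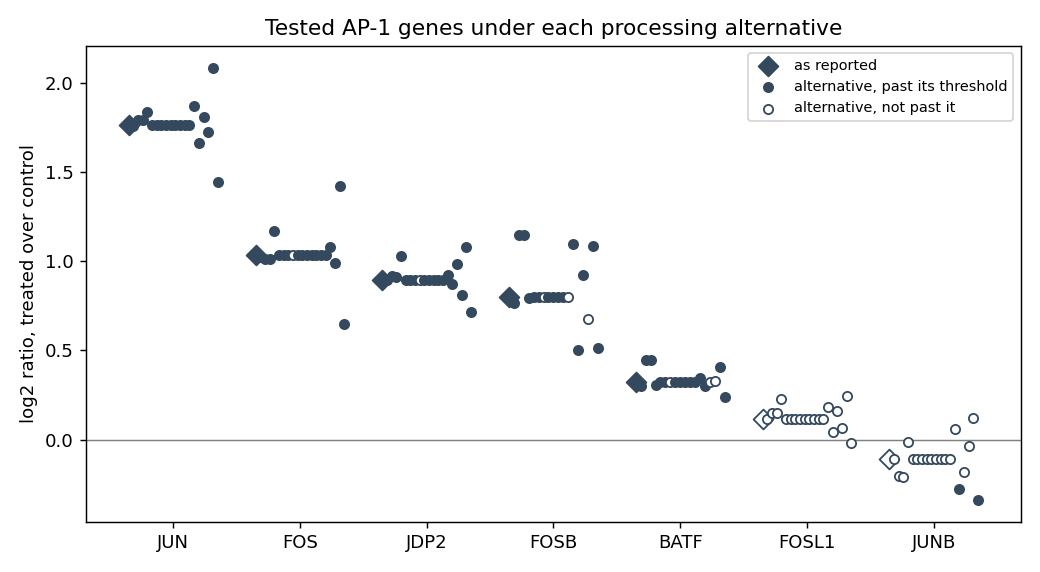
Log2 ratio of treated to control cells (vertical axis) of the 7 genes tested (horizontal axis), with a diamond for the value reported here and a circle for each other way of processing the arrays, filled where the gene passed the threshold and open where it did not. JUN stays between 1.45 and 2.09 and is filled throughout, while JUNB moves between -0.34 and 0.12 and FOSB between 0.50 and 1.15.

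FOS, JDP2 and BATF lie next to each other on chromosome 14, in a stretch of 265.1 kb of hg18 that runs from the FOS probe at 74817967 over JDP2 (75006835 to 75006894) to BATF (75083004 to 75083063). These 3 genes, already counted above, were all called higher, as were 23.2% of all probes tested. No other gene probe of the array lay between them, and of the 10 other probes within 500 kb to either side 9 could be tested. Of those 9, PGF, a growth factor of the VEGF family, was called higher at a log2 ratio of 0.46 (limma adjusted p = 0.0029), and the others, among them EIF2B2 at 0.11 and MLH3 at 0.07, did not pass the test. The median over the 9 was 0.11, beside 0.01 for all genes tested. This stretch was chosen after its values were seen.

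The promoters of FOS, FOSB, JUN and JUNB are printed because these 4 immediate early genes gave different ratios, the first 3 rising and JUNB not passing the test. The sequences are the 100 bases before the start of each gene in the RefSeq annotation of GRCh38.p14, 5′ to 3′ on the gene's strand. Capitals mark the CRE core TGACGT, the JUN-type site TGACATCA or the TATA box TATAAA.
FOS: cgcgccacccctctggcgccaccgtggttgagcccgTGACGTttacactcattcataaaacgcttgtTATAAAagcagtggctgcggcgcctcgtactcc
FOSB: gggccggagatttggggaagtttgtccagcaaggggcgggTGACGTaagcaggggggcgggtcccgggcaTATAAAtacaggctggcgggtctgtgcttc
JUN: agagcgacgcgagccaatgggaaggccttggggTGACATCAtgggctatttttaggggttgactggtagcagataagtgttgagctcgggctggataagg
JUNB: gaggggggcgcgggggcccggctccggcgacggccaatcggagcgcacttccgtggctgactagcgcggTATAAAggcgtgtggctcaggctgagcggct

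These stretches are chr14:75278728-75278827 and chr19:45467896-45467995 on the plus strand for FOS and FOSB, chr1:58784048-58784147 on the minus strand for JUN and chr19:12791386-12791485 on the plus strand for JUNB. The search took in the 250 bases before the start on both strands and found an entry for 8 of the 9 members, with 3 start sites for JDP2. FOS and FOSB held TGACGT and TATAAA at nearly the same distances. TGACGT ran from 64 to 59 bases before the start in FOS and from 60 to 55 in FOSB, and TATAAA from 33 to 28 and from 30 to 25. JUNB held TATAAA from 31 to 26 bases before the start and no TGACGT in this window. JUN held TGACATCA from 67 to 60 bases before the start, a site to which JUN pairs with ATF2 are known to bind. The JUN window held neither TGACGT nor TATAAA. FOSL2 also held TGACGT, from 66 to 61 bases before the start, and the second of the JDP2 start sites from 97 to 92. JUND held it on the minus strand from 87 to 82 and, further away, within a whole CRE (TGACGTCA) from 200 to 193. Of all 35116 promoter windows searched, 7.1% held TGACGT, 2.37% TGACATCA, 1.65% TGACGTCA and 10.7% TATAAA. The TRE TGACTCA (4.2% of windows) and the CArG box, the binding site of serum response factor (1.16%), were found in 0 of the members' windows. Sites further than 250 bases before the start were not searched for, so a gene may still hold them there. TGACGT was added to the search after the windows had been seen. Whether any of these motifs bears on the ratios was not tested.

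Other bZIP genes, whose proteins pair with JUN or FOS proteins or share their sites, held the largest changes among the related lists. Of the 18 genes listed, 15 could be tested, 8 were called higher and 4 lower (limma), and the median log2 ratio was 0.22, beside 23.2% higher and 13.1% lower of all genes tested. ATF3, a stress-induced partner of JUN, had ratios of 1.60, 2.55, 2.06 and 2.18 on arrays 1 to 4, all above those of FOS. Its mean was 2.10 ± 0.39 (SD, n = 4), with an adjusted p of 5.5e-05. DDIT3, which encodes the stress protein CHOP, rose by 1.63 ± 0.30 (SD) and MAFF, a small MAF protein without an activating domain, by 1.50 ± 0.39 (SD). NFE2, the erythroid partner of the small MAF proteins, fell by 1.31 on the log2 scale (limma adjusted p = 0.000313), with ratios of -1.26, -1.13 and -1.59 on arrays 2 to 4, its spot on array 1 being marked. The marked spot gave -0.81, and the first orientation thus rests on array 2. NFE2 was not called without the dye term (limma adjusted p = 0.0643). The other genes called higher were MAFG, ATF4, CREB5, ATF2 and NFE2L1, and the others called lower were NFE2L2, which encodes NRF2, ATF7 and NFE2L3. Without the dye term the 3 genes ATF3, DDIT3 and MAFF were still called higher (limma adjusted p between 0.0315 and 0.0434), and 0 genes of the list were called lower. The list gave 6 higher and 2 lower genes without array 3, beside 1081 and 380 of 8011 probes. It gave 6 higher and 0 lower without array 4, beside 827 and 217 of 7997 probes. ATF3 and DDIT3 are, like FOS and JUN, genes that the study picked from these arrays. The study also reported ATF3 and DDIT3 higher by quantitative PCR in K562 cells, and gave no such value for FOS or JUN.

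The erythroid marker list, which also holds NFE2, gave more lower than higher genes. Of its 15 genes tested 7 were called lower and 1 higher, beside 13.1% and 23.2% of all genes tested, and the median log2 ratio was -0.20. The count depended on the arrays, with 2 lower and 5 higher on arrays 1 and 2 alone, beside 1374 and 1063 of 8018 probes. On arrays 3 and 4 alone 9 were lower and 1 higher, beside 2708 and 3498 of 8853 probes. Without array 3 the list gave 4 lower, beside 380 of 8011 probes, and without array 4 also 4, beside 217 of 7997. Without the dye term 0 were lower and 0 higher, beside 4 and 50 of 8937 probes. Among the 7 called lower in the main fit, LMO2 had a log2 ratio of -1.07, KLF1 of -0.70 and GATA1 of -0.56. EPOR was the one called higher in that fit (0.22). The summed normalised intensity of the list ran from 660790 to 1391500 in control and from 625980 to 1199700 in treated cells, ranges that overlapped. Of the markers of other cell types, MS4A1 of B cells, CSF1R of monocytes, CDH1 of epithelium and COL1A1 and COL3A1 of fibroblasts were not well above background on any array. Others were: 2 of 5 lymphoid, 2 of 4 monocyte and 2 of 6 epithelial and fibroblast markers in the control channel of all 4 arrays. The numbers were the same in the treated channel. Of the 5 lymphoid markers 4 were tested and CD3D was called lower (-0.24), the 2 of 4 monocyte markers that could be tested did not pass the test, and of the 6 epithelial and fibroblast markers 1 was called higher (DCN, 0.21) and 1 lower (EPCAM, -0.24). Their summed intensities ran from 8909 to 11235 in control and from 6981 to 12181 in treated cells for the lymphoid list, from 19679 to 29223 and from 14647 to 44163 for the monocyte list, and from 25370 to 41487 and from 21105 to 36729 for the last list. What part the markers had in the AP-1 ratios was not tested.

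Genes upstream of AP-1 had log2 ratios between -0.31 and 0.82. Of the MAP kinases, their upstream kinases and the GADD45 adaptors, 25 of 29 could be tested, with 8 higher (32%) and 3 lower (12%) by limma, beside 23.2% and 13.1% of all genes tested, and the median log2 ratio was 0.08. With median centring in place of loess 9 were higher and the 3 lower calls were lost. The largest changes were those of GADD45B (0.82 ± 0.54, SD), MAP3K8 (0.67 ± 0.23), GADD45A (0.63 ± 0.21) and MAP3K1 (0.63 ± 0.29), all higher on 4 of 4 arrays. The ratios of GADD45B were 0.19, 0.60, 1.04 and 1.44 on arrays 1 to 4. On arrays 1 and 2 alone GADD45B and MAP3K1 did not pass the test (limma adjusted p = 0.078 and 0.066). Without the dye term 0 genes of this list were called higher and 0 lower. GADD45A and GADD45B encode stress-induced activators of the kinase MAP3K4, and MAP3K1 and MAP3K8 encode kinases that feed JNK and ERK. MAPK8, the gene of JNK1, was also called higher, at 0.42, and MAPK12, MAP2K3 and MAP3K5 were called lower, at -0.25 to -0.31. The MAP3K1 probe was well above background on 2 arrays in each channel.

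The factors that bind the FOS and JUN promoters gave 2 genes higher and 2 lower of 15 tested out of 16 (13.3% each, beside 23.2% and 13.1% of all genes tested), with a median log2 ratio of -0.04. With median centring 3 were higher and 1 lower, ELK1 no longer being called (-0.22, limma adjusted p = 0.073). SRF, the serum response factor, did not pass the test (-0.10, limma adjusted p = 0.261), and neither did CREB1, the CRE binding protein (0.16, adjusted p = 0.0838). MEF2A, a MADS box factor of the JUN promoter, rose by 0.61 ± 0.24 (SD, n = 4) and was well above background on 2 arrays in each channel. MRTFA, a coactivator of SRF, rose by 0.40 ± 0.20 (SD). ELK1, an ERK target that binds beside SRF, was called lower at -0.34 ± 0.24 (SD), with all 4 arrays below 0. MEF2C was called lower at -0.60 ± 0.73 (SD), but its ratios were -1.10, -1.34, 0.07 and -0.02 on arrays 1 to 4. The call of MEF2C thus rests on arrays 1 and 2. Without array 4 the calls of MRTFA and ELK1 were lost (limma adjusted p = 0.106 and 0.091), and without array 3 that of MRTFA (0.078). When the dye term was left out, 0 genes of this list were called higher and 0 lower.

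Genes whose products shorten or lengthen the life of AP-1 transcripts or proteins gave 3 higher (21.4%) and 4 lower (28.6%) of 14 tested, beside 23.2% and 13.1% of all genes tested, and a median log2 ratio of 0.02. With median centring 4 were higher and 2 lower. ZFP36, which encodes tristetraprolin, a protein that binds AU-rich elements and speeds the decay of FOS mRNA, rose most, by 1.22 ± 0.41 (SD, n = 4; adjusted p = 0.000163 from limma). Its ratios were 1.58, 1.41, 0.63 and 1.26 on arrays 1 to 4. GSK3B, a kinase that marks JUN for degradation, fell by 0.43 (SD 0.35), with 3 of 4 arrays below 0, and DET1, part of a ubiquitin ligase for JUN, had a log2 ratio of 0.37 ± 0.41 (SD), with 3 of 4 above 0. ZFP36L2, a relative of ZFP36, was called lower at -0.46 ± 1.10 (SD), with ratios of -1.64 and -1.13 in the first orientation and 0.68 and 0.26 in the second, so its direction turned with the dye. Without array 4 the calls of GSK3B, DET1 and ZFP36L2 were lost (limma adjusted p = 0.073, 0.055 and 0.140), and without array 3 that of DET1 (0.069). ITCH was also called higher (0.23), and ELAVL1, whose product HuR stabilises AU-rich transcripts, and TIA1 were called lower (-0.25 and -0.26). When the dye term was left out, 0 genes of this list were called higher and 0 lower.

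Known AP-1 target genes were called in both directions. Of the 34 genes listed, 32 were on the array and 19 could be tested, with 4 higher (21.1%) and 5 lower (26.3%) by limma, beside 23.2% and 13.1% of all genes tested, and a median log2 ratio of -0.01. With median centring 5 were higher and 2 lower. CXCL8, the chemokine interleukin 8, had the largest value, 1.51 ± 1.57 (SD, n = 4), but its ratios were 0.04 and 0.25 on arrays 1 and 2 and 2.84 and 2.89 on arrays 3 and 4. On arrays 1 and 2 alone it did not pass the test (limma adjusted p = 0.366). NQO1, an antioxidant enzyme, was called higher at 0.42 ± 0.91 (SD). Its ratios were -0.34 and -0.39 on arrays 1 and 2 and 1.27 and 1.14 on arrays 3 and 4. On array 2 the NQO1 spot was not well above background in either channel. PLAUR and VEGFA were the other targets called higher, at 0.24 and 0.22. CCND1, the gene of cyclin D1, was called lower at -0.75 ± 0.16 (SD) and CCL2, a chemokine gene, at -0.63 ± 0.34 (SD), each lower on all 4 arrays and well above background in at most 2 arrays per channel. CCL2 was no longer called without array 4 (limma adjusted p = 0.0515), and CCL2 and CCND1, too, were picked by the study from these arrays. For CCL2 and CCND1 the study also reported lower levels by quantitative PCR in K562 cells. PLAU, TIMP1 and IL6 were called lower at -0.25 to -0.22. HMOX1 and MT2A, stress-induced targets, did not pass the test (-0.01 and -0.05). When the dye term was left out, 0 target genes were called higher and 0 lower.

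The genes with the pattern most like FOS and JUN were looked for over the 4 array ratios, by the root mean square difference among 7975 genes measured on all 4 arrays. For FOS the nearest were BTN2A2, a butyrophilin gene (difference 0.073 on the log2 scale), BBC3, which encodes the apoptosis regulator PUMA (0.128), and DUSP3, a phosphatase gene (0.207). BTN2A2 had ratios of 1.33, 1.44, 0.45 and 0.70 on arrays 1 to 4 and shared with FOS the larger values on arrays 1 and 2. For JUN the nearest were AATK, a kinase gene (0.187), BAG3, a cochaperone gene (0.187), and DDIT3 (0.211). BAG3 had ratios of 1.67, 2.14, 1.37 and 1.80, with array 2 the highest and array 3 the lowest, as for JUN.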

How the data were processed

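Each of the 4 arrays compared RNA of treated K562 cells with RNA of control cells. The authors quantified the scans with Feature Extraction 9.5.1.1 (version from the file headers) and deposited, for either dye, unnormalized spot intensities next to those of the surrounding background. The deposited files add processed intensities (background and dye effects removed) with their Cy5 over Cy3 ratio as a log10 value, used only as alternatives. The authors' series table holds log10 ratios, and between 99.9% and 100% of its values lay within 0.001 of the scanner log10 ratio once arrays 3 and 4 had their sign turned, which makes them ratios of treated to control cells.

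Intensities were background-corrected with normexp (offset 50), control spots were dropped, and each array was normalised by loess (span 0.3). Spots marked as outliers were left out, which were between 1.57% and 8.08% of gene probes per array. Probes stayed in when 1 channel or both stood well above background on 2 or more arrays, and were tested when both dye orientations and a residual degree of freedom remained. Treatment and dye were the terms of the fit (limma 3.58.1, R 4.3.3), p-values were adjusted by Benjamini-Hochberg over all probes tested, and calls were made at an adjusted p under 0.05. Levels per channel are log2 intensities after quantile scaling of the average intensities between arrays. The number of arrays limits the precision. In simulated ratios for the 8852 probes of treated over control, the fit recovered 85.5% of 200 probes given a log2 ratio of 1, and 2.29% of its calls were false. The simulated arrays held no error shared by arrays of the same orientation.

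RefSeq (GRCh38.p14) named 12002 of 14297 gene probes through their accession, and 2295 carry the name of the array's design. Positions of probes were taken from the files (hg18), and promoter sequences are RefSeq's. Where a gene had more than 1 probe, the brightest on average stood for it. All members were named, with up to 4 called genes of each related list by size of the log2 ratio and the 3 genes nearest to FOS and to JUN. Other genes named were chosen after their values were seen. The members and lists were chosen with earlier results of these data known. Some results for marker genes are not reported here.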

Additional observations from a re-analysis of the deposited data

Results flagged for a closer look

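In a check of the 4 array ratios of 32 genes for a sample far from the others, 2 genes passed the 95% critical value of Dixon's ratio of gap to range for 4 samples, which chance passes in about 5% of groups. DDIT3 had a ratio of gap to range of 0.863, because array 2 gave a log2 ratio of 2.07 and the other arrays 1.44 to 1.53. AATK had 0.850, with 2.33 on array 2 and 1.36 to 1.51 on the others, and its control channel was not well above background on arrays 1 and 2. No AP-1 gene passed this check, although array 2 also gave the highest ratio of JUN, FOS, FOSB, JDP2, BATF, FOSL1 and JUNB. For FOS the ratio on array 1 was nearly equal (1.421 against 1.424).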

How the results depend on the processing

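The 5 AP-1 genes called higher were the same 5 under median centring, processed signals of Feature Extraction, no background subtraction and the series table. They were also the same 5 with no filter on dim probes, outlier spots kept, an intensity-dependent prior and array weights. So they were with both ways of averaging the arrays as dye-swap pairs. In all settings from the dim probes on, the log2 ratios of the 5 genes were as reported, and only their p-values could change. The same 5 were called in each dye orientation alone, where treatment and dye cannot be told apart. The count fell to 3 where both channels had to be well above background on all arrays (5 genes tested), to 1 without the dye term (JUN), and lay between 3 and 5 with an array left out, BATF being lost without array 3 and FOSB and BATF without array 4. At an adjusted p under 0.01 it was 4. JUNB made the count of lower genes 0 to 1 with an array left out and 1 on arrays 3 and 4 only. Genes whose dye term passed the threshold numbered 2 as reported, 4 with processed signals, 4 with the series table, 1 at an adjusted p under 0.01 and between 1 and 6 with an array left out.

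The direction turned for JUNB without array 1 (0.060, against -0.28 without array 2) and on arrays 1 and 2 only (0.12). On arrays 3 and 4 only it turned for FOSL1 (-0.016), MEF2C (0.025) and ZFP36L2 (0.47), and on arrays 1 and 2 only for NQO1 (-0.37). NQO1 was also not called with processed signals (0.24, limma adjusted p = 0.070). The cause was not tested. The single-orientation fits were chosen after seeing the data.

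Over all probes 2052 were higher and 1161 lower as reported. The counts were 2286 and 589 with median centring, so that 79.5% rather than 63.9% of the calls were higher, 1577 and 1148 with processed signals, 1274 and 1086 with both channels well above background, 1245 and 452 at 0.01, 50 and 4 without the dye term, and from 827 to 2629 and from 217 to 1513 with an array left out. Arrays 1 and 2 alone gave 1063 and 1374, and arrays 3 and 4 alone 3498 and 2708. FOSB and BATF, dim on arrays 1 and 2, are limited by signal over background, and FOSL2 has no measured level.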
